A study of Rattus norvegicus with 8 samples.

Results

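Cholesterol synthesis was described here through 8 genes, chosen by name: the enzyme genes Hmgcs1, Idi1, Fdft1, Sqle, Lss and Dhcr7, and the regulators Insig1 and Srebf2. Each of the 8 names matched 1 row of the gene table, which holds 19238 genes, and all 8 had enough counts to be tested. Total RNA of the rat thoracic aorta was sequenced in 2 groups of 4 libraries, aged 7 to 8 weeks by the labels. The control group was of the Wistar strain, and the other group was of the GK strain and is labelled as diabetic macroangiopathy. The GK (Goto-Kakizaki) rat is a lean diabetic strain that was bred from Wistar rats, so strain and diabetes form the same split of these libraries and cannot be told apart. No treatment or engineered allele is given, and the labels do not say whether each library came from a different animal, so p-values measure the spread between these samples. Libraries are named by their group and the number in their label, 7 to 10 in each group.

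Cells make cholesterol from acetyl-CoA. The early enzymes build mevalonate and turn it into isoprenoid units, the middle enzymes join these into squalene and close it into lanosterol, and the late enzymes trim lanosterol to cholesterol. Most of the genes are switched on together by SREBP-2, the product of Srebf2, which the SCAP protein carries out of the endoplasmic reticulum when sterols are low, while INSIG proteins hold SCAP back when sterols are high. In the vessel wall, smooth muscle cells, endothelium, macrophages and the surrounding fat can all make and take up sterol.

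Total gene counts ran from 11760397 to 16266151 per library. Values below are CPM, the library's counts scaled to a common total with its TMM factor, and log2 fold changes of GK over control with their SE. Smooth muscle markers, which define the aortic wall, summed to 4743 to 12780 CPM in the controls and 2476 to 7202 CPM in GK. All 8 markers were present and 1 of 8 (Lmod1) passed the test as lower. The 11 adipocyte markers found summed to 6319 to 9231 CPM in the controls, to 14204 to 17112 CPM in GK 7, 8 and 10, and to 8671 CPM in GK 9, with 3 of 11 higher. The log2 fold change was above 0 for 9 of the 11 and below 0 for 2. These 2 were Lep at -1.92 ± 0.67 (edgeR adjusted p = 0.111) and Cfd at -0.06 ± 0.26 (edgeR adjusted p = 0.906). DESeq2 called 5 of the 11 as higher and 1, Lep, as lower, where it called 18.2% of all genes tested. Library GK 9 stood apart: its 4 skeletal muscle markers (Acta1, Ckm, Myh1, Tnnt3) summed to 14943 CPM, against 16.2 to 46.0 CPM in the other 7 libraries, and its 7 Schwann cell markers summed to 1153 CPM, against 132 to 635 CPM. Over the groups, 0 of the 4 skeletal muscle markers passed the edgeR test (4 had an unadjusted p under 0.05 and DESeq2 called 0), and 1 of 6 Schwann cell markers tested was higher (Mbp). Results that rest on GK 9 are therefore given with and without it. In a bulk sample, fewer cells of a type and less RNA per cell cannot be told apart.

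**Figure D1:**
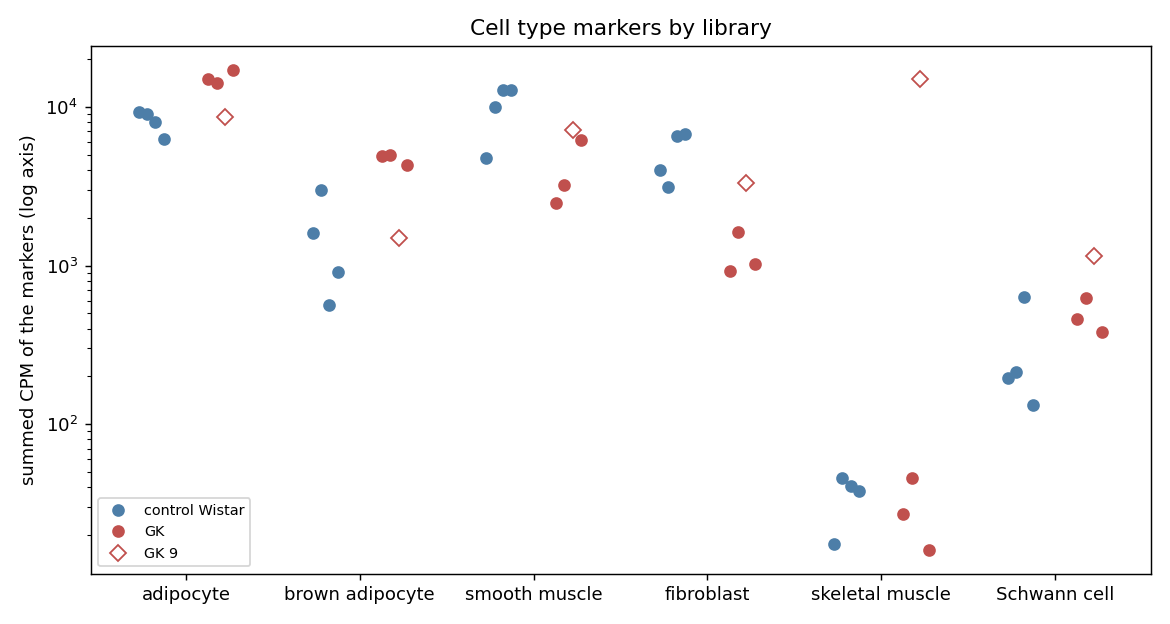
Summed CPM of cell type markers (vertical, log axis) in each library; blue points are the 4 controls, red points GK 7, 8 and 10, and the open diamond GK 9. GK 9 lies at 14943 CPM for skeletal muscle markers, where the other 7 libraries lie between 16.2 and 46.0, and among the controls for adipocyte markers.

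The sequences in front of Hmgcs1 and Lss, which passed the test, and of Dhcr7 and Srebf2, which passed it without GK 9, are shown first, since these genes are usually switched on together. The RefSeq promoter table (build GRCr8) held 6 of the 8 genes; Sqle and Fdft1 had no entry. The 250 bases before the annotated start of Hmgcs1 (chr2:53382054-53382303, plus strand), Lss (chr20:12118231-12118480, minus strand), Dhcr7 (chr1:208444184-208444433, plus strand) and Srebf2 (chr7:115543057-115543306, plus strand) are printed 5′ to 3′ on the strand of the gene. Capitals mark CCAAT (read as ATTGG on the other strand), the box bound by the factor NF-Y, and GGGCGG (or CCGCCC), the GC box bound by Sp1.
Hmgcs1: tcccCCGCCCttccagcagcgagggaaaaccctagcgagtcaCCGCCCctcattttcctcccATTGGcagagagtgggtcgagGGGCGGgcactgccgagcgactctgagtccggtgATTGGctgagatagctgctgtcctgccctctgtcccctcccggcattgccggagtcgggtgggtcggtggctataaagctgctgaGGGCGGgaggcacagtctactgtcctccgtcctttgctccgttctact
Lss: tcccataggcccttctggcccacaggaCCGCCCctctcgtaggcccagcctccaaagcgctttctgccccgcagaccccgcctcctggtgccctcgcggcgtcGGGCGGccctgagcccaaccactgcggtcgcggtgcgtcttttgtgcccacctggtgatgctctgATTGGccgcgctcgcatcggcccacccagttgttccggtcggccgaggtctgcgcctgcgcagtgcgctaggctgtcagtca
Dhcr7: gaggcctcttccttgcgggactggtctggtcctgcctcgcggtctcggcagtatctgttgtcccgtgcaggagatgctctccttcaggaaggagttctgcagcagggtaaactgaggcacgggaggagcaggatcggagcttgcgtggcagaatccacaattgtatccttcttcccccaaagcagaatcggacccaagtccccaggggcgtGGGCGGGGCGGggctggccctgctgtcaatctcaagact
Srebf2: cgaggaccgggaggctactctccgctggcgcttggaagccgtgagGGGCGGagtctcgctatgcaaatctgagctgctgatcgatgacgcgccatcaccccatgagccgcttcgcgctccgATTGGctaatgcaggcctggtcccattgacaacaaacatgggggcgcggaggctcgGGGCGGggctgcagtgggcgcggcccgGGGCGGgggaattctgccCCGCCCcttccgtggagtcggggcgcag

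CCAAT stood in the window of 5 of the 6 members with an entry (Hmgcs1, Lss, Idi1, Insig1, Srebf2), in 13 of 17 windows of the whole sterol pathway and in 34.0% of the 33469 windows of the table, searched on both strands. Hmgcs1 held 2 matches, 188 and 133 bases before the start. Lss held 1 and Dhcr7 none. GGGCGG stood in 5 of 6 members (all but Idi1), 15 of 17 pathway windows and 30.5% of all windows. The sterol regulatory element forms TCACNCCAC and CACCCCAC were in none of the 6 member windows, against 0.974% and 2.32% of all windows. The sterol forms overlap each other, since TCACNCCAC holds CACCCCAC where N is C. A match is a description of letters only.

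Of the 8 genes, Hmgcs1 and Lss passed the test, both higher in GK; over all 13673 genes tested 7.28% passed, 3.96% as higher and 3.31% as lower (edgeR quasi-likelihood test, Benjamini-Hochberg adjusted p under 0.05). The median log2 fold change of the 8 genes was 0.73, against 0.00 over all genes tested. Hmgcs1 and Lss were also the members whose groups did not overlap, 2 of 8, which 15.6% of all genes tested showed, 7.93% with GK above and 7.64% with GK below. The other 6 members ranged from -0.18 (Srebf2) to 1.15 (Sqle). Without GK 9, 4 of 8 passed: Hmgcs1, Lss and Dhcr7 as higher and Srebf2 as lower, where 22.1% of all 13775 genes then tested passed. The median of the 8 was then 0.29.

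**Figure D2:**
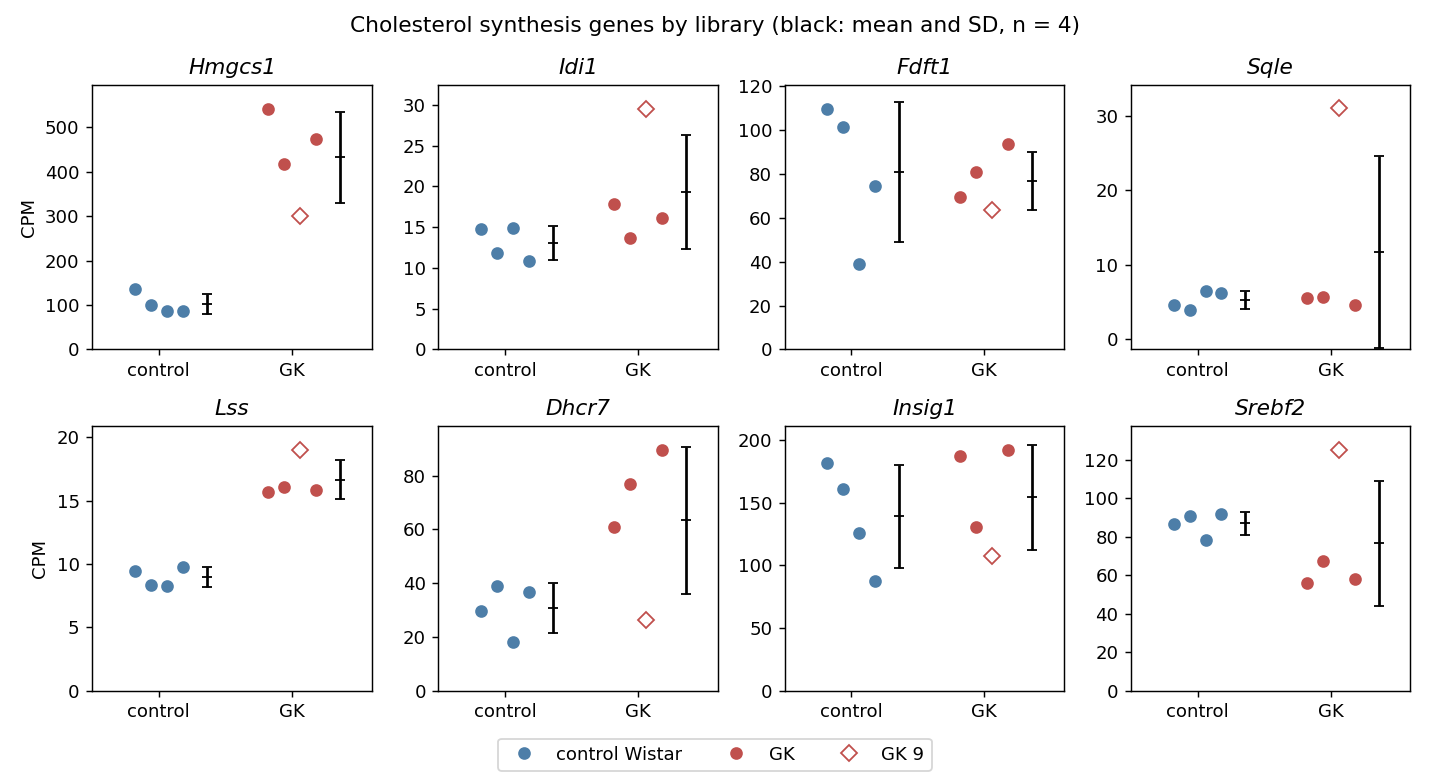
CPM (vertical, linear axis, starting at 0 or below where the SD reaches below 0) of each of the 8 genes in each library; blue points are controls, red points GK, the open diamond GK 9, and the black bars mean ± SD of the 4 libraries of a group. Hmgcs1 and Lss separate the groups. The open diamond is the highest value for Sqle, Idi1, Lss and Srebf2. It is the lowest of GK for Hmgcs1, Dhcr7, Insig1 and Fdft1.

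Hmgcs1, the cytosolic synthase that makes HMG-CoA at the start of the pathway, had the highest log2 fold change of the 8. It is listed on chromosome 2 from 52431601 to 52445055, in a build that the sources used here do not name. Its level was 135, 99.4, 85.3 and 87.1 CPM in controls 7 to 10. In GK 7 to 10 it was 541, 416, 299.6 and 474 CPM. The lowest GK library, GK 9, was still above the highest control. Means were 102 ± 23.1 and 433 ± 102 CPM (SD, n = 4 each), a log2 fold change of 2.09 ± 0.24 (edgeR adjusted p = 0.00564) and 4.25-fold in means. Leaving out each library in turn gave 1.96 to 2.27, with adjusted p from 0.00174 to 0.0343. With the adipocyte marker score as a covariate it was 1.67 ± 0.35 (edgeR adjusted p = 0.163), which did not pass the test.

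Idi1, which interconverts the isoprenoid units made from mevalonate, was at 14.8, 11.8, 14.9 and 10.8 CPM in the controls. GK 7 to 10 had 17.9, 13.7, 29.5 and 16.2 CPM. GK 9 was the highest and GK 8 lay among the controls. The log2 fold change was 0.56 ± 0.25 (edgeR adjusted p = 0.189), and 0.29 ± 0.18 without GK 9 (adjusted p = 0.252).

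Of the 8 genes of the mevalonate arm 1 passed, Hmgcs1 itself, with a median of 0.40. Mvd, which forms isopentenyl diphosphate, had no overlap between groups at 1.94 to 4.34 and 4.74 to 8.19 CPM. Its log2 fold change was 1.06 ± 0.31 (edgeR adjusted p = 0.0743), and DESeq2 called it (1.08 ± 0.34, adjusted p = 0.0123). Mvd was picked out after its values were seen.

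**Figure D3:**
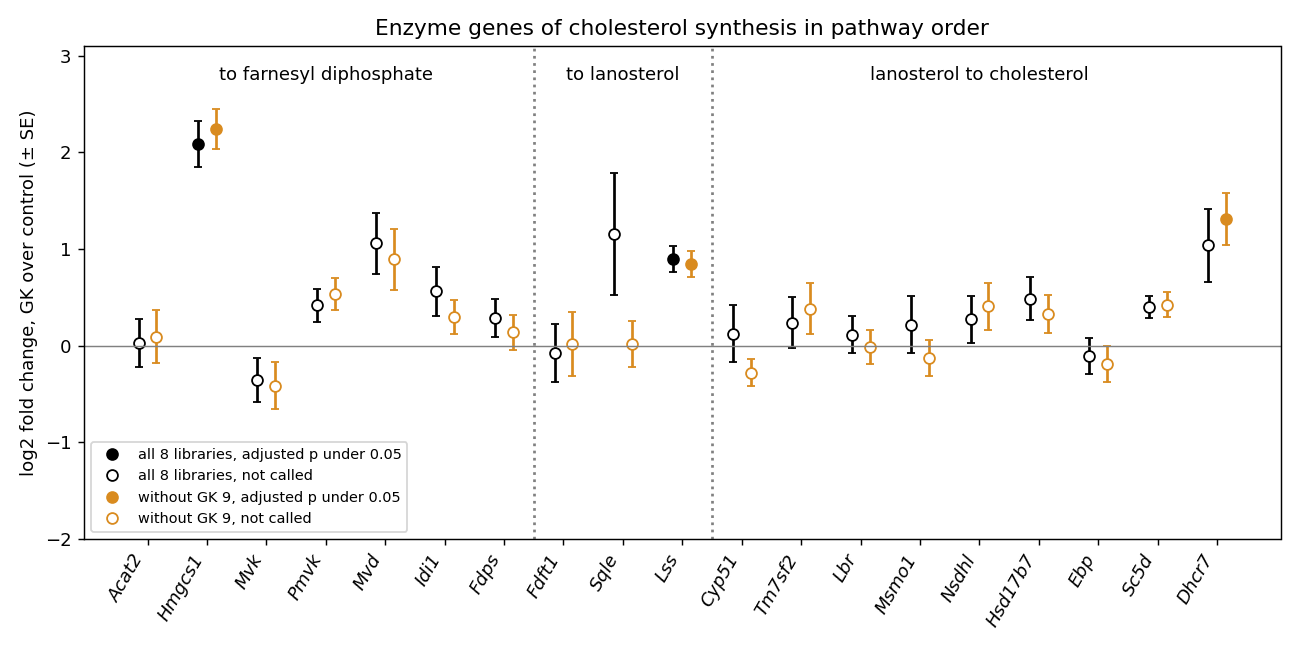
Log2 fold change of GK over control with its SE (vertical) for 19 enzyme genes in pathway order (horizontal); black is the fit to all 8 libraries, orange the fit without GK 9, and filled points have an adjusted p under 0.05. Hmgcs1 at 2.09 and Lss at 0.89 are filled in black; of the genes plotted, Dhcr7 at 1.31 is filled only in orange.

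The 3 enzymes from farnesyl diphosphate to lanosterol each gave a different picture. Fdft1, the squalene synthase, was at 110, 102, 38.9 and 74.4 CPM in the controls and at 69.6, 80.8, 63.4 and 93.9 CPM in GK 7 to 10. All GK values lay inside the control range, and the log2 fold change was -0.08 ± 0.30 (edgeR adjusted p = 0.887). Its sign was positive without control 7 (0.11), without control 8 (0.05) and without GK 9 (0.01).

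Sqle, the squalene epoxidase that adds oxygen to squalene, was low in 7 libraries and high in GK 9. Controls had 4.55, 3.88, 6.43 and 6.21 CPM, and GK 7, 8 and 10 had 5.55, 5.70 and 4.61 CPM. GK 9 had 31.1 CPM. The groups overlapped, the log2 fold change was 1.15 ± 0.63 (edgeR adjusted p = 0.271), and without GK 9 it was 0.02 ± 0.23 (adjusted p = 0.966).

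Lss, the lanosterol synthase that closes the first sterol ring system, was the other member past the test. Controls 7 to 10 had 9.47, 8.32, 8.24 and 9.76 CPM. GK 7 to 10 had 15.7, 16.1, 19.0 and 15.9 CPM. The groups did not overlap, and GK 7, 8 and 10 lay between 15.7 and 16.1 CPM. Means were 8.95 ± 0.78 and 16.6 ± 1.56 CPM (SD, n = 4 each), a log2 fold change of 0.89 ± 0.14 (edgeR adjusted p = 0.0124) and 1.86-fold in means. Leaving out each library in turn gave 0.84 to 0.94, with adjusted p from 0.00758 to 0.0478. With the adipocyte marker score as a covariate it was 1.12 ± 0.19 (adjusted p = 0.106). It is listed on chromosome 20 from 12842884 to 12870497.

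Dhcr7, the reductase of the last step to cholesterol, had 29.8, 38.8, 18.1 and 36.7 CPM in controls 7 to 10. GK 7 to 10 had 60.8, 76.9, 26.2 and 89.4 CPM. GK 9 lay among the controls and the other 3 GK libraries lay above all of them. The log2 fold change was 1.04 ± 0.38 (edgeR adjusted p = 0.123). Without GK 9 it was 1.31 ± 0.27 (adjusted p = 0.0142), and DESeq2 on all libraries gave 1.05 ± 0.40 (adjusted p = 0.0479).

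The skeletal muscle and Schwann cell markers were highest in GK 9, and their part in its high Sqle and Idi1 and its low Dhcr7 was not tested.

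Among the 10 late enzymes tested, 0 passed with edgeR, 2 had an unadjusted p under 0.05 (3775 of 13673 over all genes), and DESeq2 called 2, Dhcr7 and Sc5d. DESeq2 called 18.2% of all genes tested. Sc5d, the desaturase before Dhcr7, had 43.7 to 54.5 CPM in the controls and 59.9 to 68.9 CPM in GK with no overlap, a log2 fold change of 0.40 ± 0.11 (edgeR adjusted p = 0.0705). Cyp51, which removes a methyl group from lanosterol, had 49.6 CPM in GK 9 and 18.8 to 23.1 CPM in the other GK libraries, against 23.1 to 29.0 CPM in the controls. Over the whole pathway 2 of 21 genes tested were higher and 0 lower, against 3.96% and 3.31% of all genes tested. Of the 21, 18 had a log2 fold change above 0, against 6843 of all 13673, and the pathway median was 0.28. Without GK 9, 3 of the 21 passed as higher and 1 as lower, where 22.1% of all genes tested passed. The pathway median was then 0.14. GK 9 was the highest of the 4 GK libraries for 13 of these 21 genes (61.9%) and the lowest for 7 (33.3%), against 38.4% and 37.7% of all 13775 genes tested without it.

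**Figure D4:**
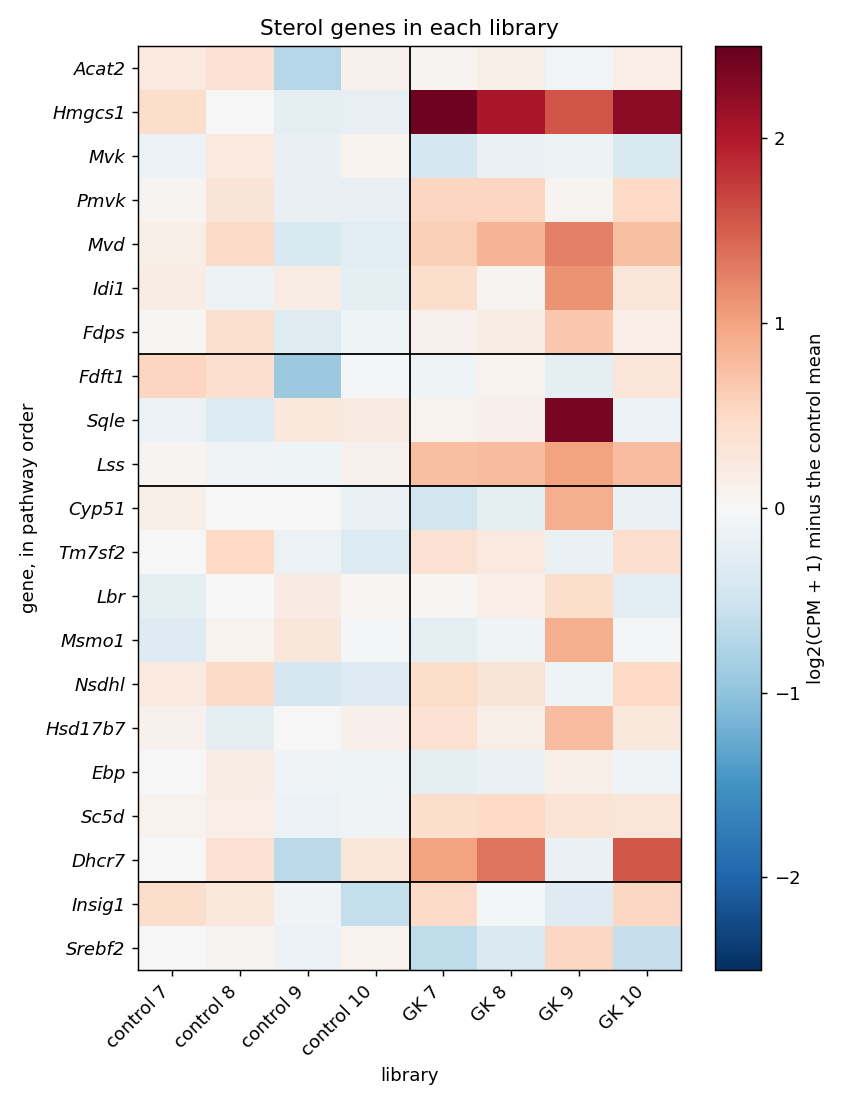
Log2(CPM + 1) minus the mean of the 4 controls (colour, red higher, blue lower) for 19 enzyme genes in pathway order and for Insig1 and Srebf2 (rows) in each library (columns). Hmgcs1 and Lss are red in all 4 GK libraries, while Srebf2 is blue in GK 7, 8 and 10 and red in GK 9, and Sqle is deep red in GK 9.

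Neither regulator among the members passed the test with all libraries. Insig1, which retains SCAP in the endoplasmic reticulum, had 182, 161, 126 and 87.8 CPM in controls 7 to 10. GK 7 to 10 had 187, 130.5, 107 and 192 CPM. The ranges overlapped across most of their width, and the log2 fold change was 0.15 ± 0.27 (edgeR adjusted p = 0.749). It was -0.02 without control 10, the lowest control.

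Srebf2, which encodes SREBP-2, had 86.7, 90.8, 78.4 and 91.8 CPM in the controls. GK 7 to 10 had 55.8, 67.4, 125 and 58.1 CPM. GK 9 was above every control and the other 3 GK libraries were below every control. The log2 fold change was -0.18 ± 0.26 (edgeR adjusted p = 0.672) with all libraries and -0.51 ± 0.13 (adjusted p = 0.0260) without GK 9.

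Of the 14 sterol regulation genes tested, 0 passed with edgeR, 3 had an unadjusted p under 0.05, and DESeq2 called 4, among them Lpcat3 and Insig2 as higher and Mbtps1 as lower. Over all 13673 genes tested, 3775 had an unadjusted p under 0.05 and DESeq2 called 18.2%. The median of the 14 was 0.22. Srebf1, which encodes the SREBP-1 factors of fatty acid synthesis, was the most abundant at 469 ± 167 and 562 ± 177 CPM (SD, n = 4 each), with overlapping groups and a log2 fold change of 0.26 ± 0.34 (edgeR adjusted p = 0.644). Lpcat3, a phospholipid-remodelling enzyme of the endoplasmic reticulum, had 57.9 to 92.8 CPM in the controls, 145, 150 and 173 CPM in GK 7, 8 and 10, and 82.3 CPM in GK 9. It passed the edgeR test without GK 9 (1.08 ± 0.18, adjusted p = 0.00880).

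Each member was also set against Hmgcs1 within its own library, which needs no scaling between libraries; Hmgcs1 was taken as the reference with its higher level in GK already known, so a lower ratio of a less changed gene follows from that choice and the ratios are a description without a test. The log2 ratio to Hmgcs1 was lower in GK for all 7 other members, from -1.12 for Dhcr7 to -2.34 for Srebf2. For Lss the controls, in the order of their numbers, had ratios of -3.81, -3.56, -3.35 and -3.14, and the GK libraries had -5.09, -4.68, -3.97 and -4.89, with no overlap. For Insig1 it was 0.43, 0.69, 0.56 and 0.01 in the controls and -1.53, -1.67, -1.48 and -1.30 in GK, so Insig1 went from above Hmgcs1 to below it in CPM. In 6 of the 7 ratios the groups did not overlap. Sqle was the exception, with a difference of -1.42, and its ratio in GK 9 (-3.26) was above that of every control.

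**Figure D5:**
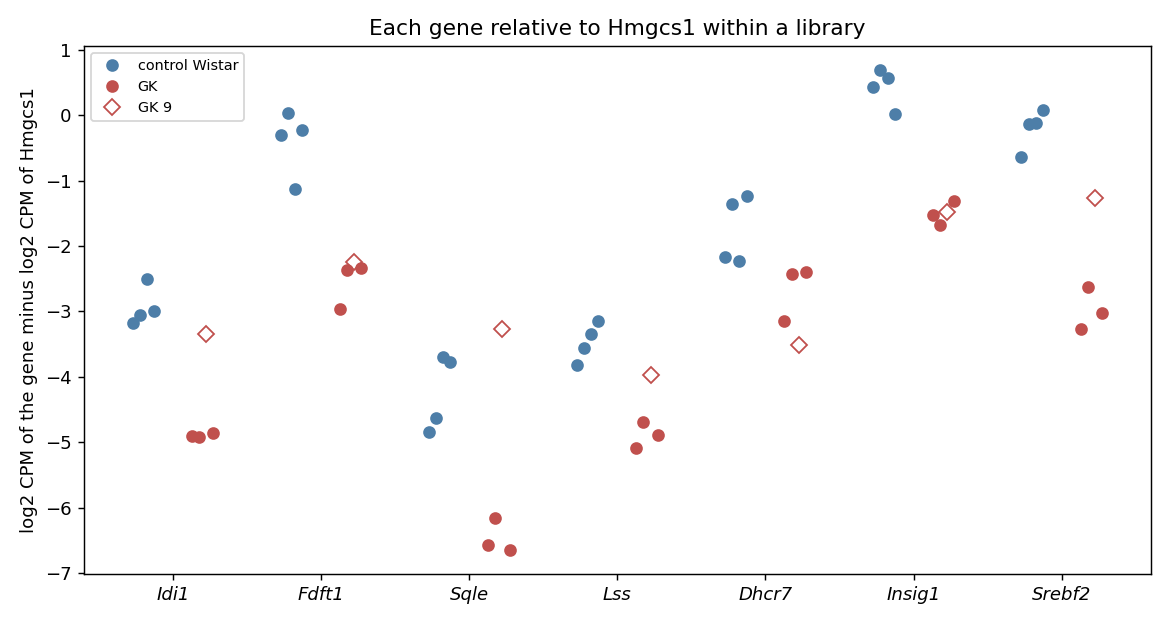
Log2 CPM of each gene minus log2 CPM of Hmgcs1 in the same library (vertical; 0 means equal CPM); blue points are controls, red points GK and the open diamond GK 9. The controls lie above all GK libraries for every gene but Sqle, where GK 9 at -3.26 is the highest of the 8.

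Levels of different genes were compared on the FPKM scale, which divides by gene length. In the controls the order of mean levels was Insig1 (60.3 FPKM), Hmgcs1 (33.3), Fdft1 (26.4), Srebf2 (15.1), Dhcr7 (7.58), Idi1 (4.99), Sqle (2.10) and Lss (1.34). The control ranges of neighbours in this order overlapped, except that Srebf2 lay above Dhcr7 and Idi1 above Sqle. Within each of the 4 controls, Insig1 also lay above Hmgcs1 and Sqle above Lss. In GK, Hmgcs1 came first at 125 ± 13.3 FPKM (SD, n = 4), above Insig1 at 58.7 ± 7.51 FPKM in every library. Fdft1 came next at 22.9 FPKM without overlap with either neighbour, Dhcr7 (13.6) and Srebf2 (12.6) overlapped, and Idi1, Sqle and Lss held the last 3 places at 6.79, 4.64 and 2.27 FPKM. The place of Sqle rested on GK 9, where it had 13.4 FPKM. In GK 7, 8 and 10 Sqle had 1.71, 2.03 and 1.40 FPKM, below Lss (1.87, 2.20 and 1.85 FPKM) in each of them. In GK 9 Sqle and Idi1 (12.3 FPKM) also lay above Dhcr7 (7.27 FPKM), and Srebf2 (24.0 FPKM) lay above Fdft1 (23.6 FPKM). Over GK 7, 8 and 10 alone the other 6 genes held their places, and Lss at 1.97 FPKM came before Sqle at 1.71 FPKM.

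Beyond the synthesis steps, the branches that draw on mevalonate for other products had 0 of 13 genes past the edgeR test, 5 with an unadjusted p under 0.05 and 3 called higher by DESeq2 (Pdss2, Zmpste24, Nus1). Over all 13673 genes tested, 3775 had an unadjusted p under 0.05 and DESeq2 called 18.2%. The median of the 13 was 0.30. The most abundant genes of this list were Nus1, for dolichol synthesis, at 46.6 to 55.8 CPM in the controls against 55.7 to 73.1 CPM in GK, and Fnta, a subunit of protein prenyltransferases, at 31.0 to 58.9 against 39.9 to 72.0 CPM. The edgeR adjusted p was 0.0756 for Nus1 and 0.238 for Fnta.

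Of 14 genes of sterol uptake, storage and export, 1 passed: Abcg1, the transporter that passes cholesterol to HDL, had 45.7 to 59.7 CPM in the controls and 136, 136, 81.0 and 94.1 CPM in GK 7 to 10. The groups did not overlap, and the log2 fold change was 1.03 ± 0.20 (edgeR adjusted p = 0.0235). The call was lost without control 8 (0.0520), control 10 (0.0797), GK 7 (0.0740) or GK 8 (0.0815). Without GK 9, 3 of the 14 passed as higher (Abcg1, Soat1 and Nr1h3) and 2 as lower, among them Scarb1. In that fit 22.1% of all genes tested passed. Of the 4 oxysterol enzymes 0 passed with edgeR, 0 had an unadjusted p under 0.05 and DESeq2 called 0; the most abundant, Cyp27a1 and Cyp7b1, had edgeR adjusted p of 0.419 and 0.761.

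Part of the fatty acid arm was lower in GK. Of 11 gene rows of this list tested (Elovl6 has 2), 3 passed and all were lower in GK: Fasn, the fatty acid synthase, at -3.29 ± 0.49 (edgeR adjusted p = 0.0120), Pnpla3, a lipid droplet enzyme, at -3.27 ± 0.56 (adjusted p = 0.0177), and Scd1, the desaturase, at -4.79 ± 0.99 (adjusted p = 0.0295). Fasn had 1381 to 5818 CPM in the controls and 228 to 487 CPM in GK. The median of the list was -0.47. Leaving out 1 library ended the call of Pnpla3 without GK 7 (0.0626) or GK 10 (0.0515), and that of Scd1 without control 7 (0.0523), GK 7 (0.0938), GK 8 (0.101) or GK 10 (0.0789).

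Adipocyte, brown adipocyte and steroid gland markers were set beside these results. The mean log2 CPM of the adipocyte markers was 8.25 to 8.90 in the controls and 8.86 to 9.44 in GK, so this score moves with the group. With it as a covariate, 0 of the 8 members passed the edgeR test, and 9 of 13673 genes (0.0658%) passed in all. In this fit 4 of the 8 members had an unadjusted p under 0.05, against 1803 of the 13673 genes. Brown adipocyte markers summed to 567 to 2991 CPM in the controls, 4327 to 4993 CPM in GK 7, 8 and 10, and 1495 CPM in GK 9, the same split of the GK libraries as for Lpcat3 and Dhcr7. Of the 6 tested, 1 passed as higher with edgeR (Otop1), 2 with DESeq2, 4 with the replicate block and 3 of 7 without GK 9. Over all genes tested, 18.2% passed with DESeq2, 17.3% with the replicate block and 22.1% without GK 9, in either direction. The part of the brown adipocyte markers in the results was not tested. Steroid gland markers summed to 1.84 to 5.36 CPM in the controls and 7.10 to 12.5 CPM in GK, with 0 of 3 genes past the edgeR test, 1 with an unadjusted p under 0.05 and 1 called higher by DESeq2 (Cyp17a1). The part of adipocyte content in the results for Hmgcs1 and Lss was not tested beyond this fit.

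The genes whose profile over the 8 libraries was most like that of Hmgcs1, by the root mean square difference of centred log2 CPM, were Cd300lg (0.256), Gpsm1 (0.278) and Lrrc8b (0.281). Cd300lg, a mucin-like surface protein gene, went from 17.8 ± 5.89 to 70.9 ± 12.3 CPM (SD, n = 4 each). Lrrc8b, a subunit gene of volume-regulated anion channels, had 36.8 CPM in GK 9 and 82.2 to 90.3 CPM in the other GK libraries. For Lss they were Tp53bp1 (0.114), Armc6 (0.131) and Pgap3 (0.138), and for the mean of the 8 members Herc3 (0.111), Nt5c3b (0.117) and Pnpla6 (0.119). These genes were selected for their likeness to the profile, so their difference between groups is no separate result.

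The authors' predicted pairs of lncRNA and target, 17441 in number, name none of the 8 genes. By position, 10 lncRNA transcripts overlapped a member or lay within 10000 bases of one, and 4 of them had enough counts to be tested. One of them, NONRATT015031.2, overlaps Hmgcs1 and had 23, 28, 24 and 17 counts in controls 7 to 10 and 36, 30, 32 and 59 counts in GK 7 to 10. Scaled to CPM, control 8 at 23.2 lay above GK 7, 8 and 9 at 21.8, 17.7 and 16.6, and GK 10 was highest at 39.2. The log2 fold change of 0.76 ± 0.40 did not pass the test (edgeR adjusted p = 0.365). Of the 4 tested, 0 passed with edgeR and 0 had an unadjusted p under 0.05, where 2.74% of 11683 lncRNA transcripts passed; DESeq2 was not run on lncRNA. The sources used here do not give the strand used in counting, so reads of Hmgcs1 and of the overlapping transcript cannot be told apart.

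In the authors' deposited table, Hmgcs1 was the only one of the 8 genes called, as higher, with a log2 fold change of 1.90 and a q-value of 1.12e-08. The authors' deposited table gave Lss 0.75 with a q-value of 0.0566 and Dhcr7 0.84 with a q-value of 0.0662, both uncalled. In the authors' deposited table of pathways, 1 of 22 genes of terpenoid backbone synthesis and 1 of 19 of steroid biosynthesis were called, each with a q-value of 1. The steroid biosynthesis call was Soat2, a cholesterol-esterifying enzyme gene picked out for that reason, which had 0.263 ± 0.132 and 1.42 ± 0.379 CPM (SD, n = 4 each) and a log2 fold change of 2.40 ± 0.45 (edgeR adjusted p = 0.0222).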

How the data were processed

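Total RNA of 4 control Wistar and 4 GK thoracic aortas was sequenced; groups came from the titles, strain and group labels. The source name, which reads GK even for controls, was set aside. Per the file headers, the gene and lncRNA tables deposited by the authors hold raw read counts, FPKM values, and log2 fold changes with p-values and q-values. Their calls combine q below 0.05 and a 2-fold minimum. Terms and pathways carry the authors' deposited q-values. Bowtie 0.12.2 and 2 mouse builds, mm8 and mm9, are named in the submitters' processing notes, without their role; the sources used here do not name a rat build.

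From the counts (library totals 11760397 to 16266151), genes were tested in R 4.3.3 with edgeR 4.0.16 (filterByExpr, TMM, glmQLFit, glmQLFTest, group as the only term; Benjamini-Hochberg over all 13673 genes tested, adjusted p under 0.05, no fold minimum). Each SE was obtained by dividing the log2 fold change by the square root of F. Ratios use log2 CPM with a prior count of 2; the exact permutation test set for them is not reported as a result, since the reference was known to be higher in GK. On simulated counts for these 8 libraries the test recovered 71 of 100 genes changed 4-fold and 14 of 100 changed 2-fold, with 0 false calls among 13350.

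The members and gene lists were chosen with earlier results of these data known. Named genes are the members, of each other list the genes past the test (at most 5) or else the 2 with the highest mean CPM, the 3 genes most like each called member and the member mean, and lncRNA at a member; all other genes named were picked after their values were seen, among them those named only for a call by DESeq2 or without GK 9, such as Lpcat3, Insig2, Mbtps1, Soat1, Nr1h3, Scarb1, Pdss2, Zmpste24 and Cyp17a1. Alternatives were RLE factors, no count filter, DESeq2 1.42.0, the replicate number as a block, an adipocyte marker score as covariate, and leaving out libraries. The listed genes Erg28, Cyp7a1, Pnpla2, Elovl3, Cox7a1, Pecam1, Myh4 and Cyp11b1 were not analysed here, and some genes of the lists are counted but not reported here by name. Marker lists not described further were endothelial (2 of 6 tested higher), fibroblast (2 of 6 lower), macrophage (1 of 6 lower) and hepatocyte (0 of 1 with edgeR, by adjusted or unadjusted p, and 0 with DESeq2).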

Additional observations from a re-analysis of the deposited data

Results flagged for a closer look

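In 5 of 42 groups of 4 libraries examined (21 named genes), 1 library lay far from the other 3, measured as its gap to the nearest library over the range of the group. For independent, normally distributed values about 1 group in 20 is flagged. The groups here share libraries and some of the genes were chosen by their values, so the count cannot be set against that rate. All 5 flagged groups were the GK group with GK 9 as the distant library. Among the members, GK 9 had 19.0 CPM for Lss, where the other GK libraries had 15.7 to 16.1 CPM. It had 31.1 CPM for Sqle, where the others had 4.61 to 5.70 CPM, and 125 CPM for Srebf2, where the others had 55.8 to 67.4 CPM. It also had 83.6 CPM for Scd1, against 17.8 to 18.1 CPM, and 36.8 CPM for Lrrc8b, against 82.2 to 90.3 CPM. GK 9 also had the highest skeletal muscle marker sum, 14943 CPM, and the part of this in the 5 values was not tested.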

How the results depend on the processing

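Hmgcs1 and Lss passed under RLE factors, without a count filter, with DESeq2, with the replicate block, without both libraries numbered 9 and in all 8 fits that left out 1 library; they did not with the adipocyte score. The count of members past the test was 2, and 3 with DESeq2, 3 with the replicate block, 0 with the adipocyte score and 4 without both libraries numbered 9; leaving out 1 library gave 2 to 4. For the whole pathway it was 5 with DESeq2, 4 with the replicate block, 0 with the adipocyte score, 4 without both libraries numbered 9, and 2 to 4 leaving out 1 library. For sterol regulation it was 4 with DESeq2, 1 with the replicate block, 2 without both libraries numbered 9, and 0 to 2 leaving out 1 library. Over all genes, 995 passed, and 654 without a filter, 2489 with DESeq2, 2372 with the replicate block, 9 with the adipocyte score, 2534 without both libraries numbered 9, and 135 (without control 10) to 3046 (without GK 9) leaving out 1 library. With the adipocyte score, signs turned for Srebf2 (0.32), Insig1 (-0.59), Srebf1 (-0.38), Fnta (-0.086), Cyp7b1 (1.03), Nr1h3 (-0.12) and both rows of Elovl6 (-0.12 and -0.16). The sign of Insig1 also turned without control 10 (-0.021), over a range of -0.021 to 0.31 leaving out 1 library. That of Fdft1 turned with the block (0.011) and without control 7 (0.11), control 8 (0.05) or GK 9 (0.01). Leaving out 1 library, Fdft1 ranged from -0.31 to 0.11. The sign of Cyp51 turned without both libraries numbered 9 (-0.30) and without GK 9 (-0.28). Leaving out 1 library, Cyp51 ranged up to 0.27. The causes were not tested. Without both libraries numbered 9, where 3 against 3 cannot go below an exact permutation p of 0.1, the log2 ratios to Hmgcs1 were -1.39 (Lss), -1.07 (Dhcr7), -1.82 (Idi1), -2.74 (Srebf2), -1.88 (Insig1), -2.39 (Fdft1) and -2.04 (Sqle, then also without overlap). The numbers 7 to 10 occur in both groups. Deviations from the group means correlated by 0.42, 0.07, 0.55 and 0.02 for same-numbered libraries, in the order of their numbers. Of 8 libraries, 4 correlated best with the library of their own number in the other group. Whether same-numbered libraries share a batch or form pairs was not tested. With the replicate block Dhcr7 passed as higher (0.96 ± 0.15, edgeR adjusted p = 0.0119), where 17.3% of all genes tested passed. Genes at a few CPM, such as Sqle, rest on few counts. The self-test recovered 14 of 100 genes changed 2-fold, drawn at random from all genes kept for testing. Changes of this size or smaller may therefore be missed with 4 libraries per group. The self-test was not split by count level, so the part of depth was not tested.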
